A study of Bos taurus with 18 samples.

Results

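The exosomal (EX) fraction of plasma was compared between 30 and 20 months of age, the first and last of the nominal ages sampled, in the same 3 steers. The comparison used 6 of the 18 libraries of the series: the 3 EX libraries at 30 months and the 3 EX libraries at 20 months, numbered 1 to 3 by steer. A miRNA was kept when its CPM-normalized count (CPM, the count scaled to the total of its library) exceeded 5 in 3 or more of the 9 EX libraries, which selected 345 of 1071 miRNAs, 325 known and 20 candidates. At the edge of this filter, the third-highest EX value was 5.03 CPM for *bta-miR-3432b*, which was kept, and 4.92 CPM for *bta-miR-433*, which was not. All 6 libraries came from Japanese Black cattle, fattened steers held under the same feeding system, and no group received any other treatment. Blood was drawn from the jugular vein into EDTA tubes in the morning, and EX and free-circulating (FC) RNA were both isolated from 1 mL of each plasma sample with a column kit. Age and the sampling and sequencing of that age therefore cannot be told apart, and 3 animals stand for each age.

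Exosomes are small vesicles that cells release into the blood, and they carry miRNAs from many tissues, with blood cells, vessel walls, liver and gut among the known sources. A miRNA is a short RNA that guides a silencing complex to messenger RNAs, which it recognizes mainly through its seed, the bases near its 5′ end. Levels in plasma are shares of a mixture, so fewer cells of one type and less release from each cell cannot be told apart.

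The mature sequences below are those on which the comparison turned, as given in the count table, written 5′ to 3′ with the seed (bases 2 to 8) in capitals. The first set holds the blood cell miRNAs that were lower at 30 months, the second the lower miRNAs that share a seed with another named miRNA, and the third the higher ones. *bta-miR-25*, *bta-miR-93* and *bta-miR-181b*, which share a seed with them and did not pass the test, are shown for comparison.

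bta-miR-150: uCUCCCAAcccuuguaccagugu
bta-miR-342: uCUCACACagaaaucgcacccaucu
bta-miR-142-5p: cAUAAAGUagaaagcacuac
bta-miR-142-3p: aGUGUUUCcuacuuuauggaug
bta-miR-451: aAACCGUUaccauuacugaguuu

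bta-miR-30b-5p: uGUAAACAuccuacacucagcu
bta-miR-30c: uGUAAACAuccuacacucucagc
bta-miR-19a: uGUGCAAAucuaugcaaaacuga
bta-miR-19b: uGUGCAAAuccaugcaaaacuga
bta-miR-20a: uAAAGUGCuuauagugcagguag
bta-miR-106b: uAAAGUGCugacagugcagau
bta-miR-93: cAAAGUGCuguucgugcaggua
bta-miR-92a: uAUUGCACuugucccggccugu
bta-miR-32: uAUUGCACaugacuaaguugcau
bta-miR-25: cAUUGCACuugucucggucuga
bta-miR-181a: aACAUUCAacgcugucggugaguu
bta-miR-181b: aACAUUCAuugcugucgguggguu

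candidate-miR-40: gUCCGGUUguucuucucu
candidate-miR-38: aUAAUGAAcaauaaaacu
bta-miR-12034: cCCCGGGGagcccggcggu
bta-miR-1246: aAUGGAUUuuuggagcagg
bta-miR-375: uUUUGUUCguucggcucgcguga
bta-miR-760-3p: cGGCUCUGggucugugggga
bta-let-7e: uGAGGUAGgagguuguauagu
bta-miR-126-3p: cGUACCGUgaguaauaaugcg
bta-miR-130a: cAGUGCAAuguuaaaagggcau
bta-miR-130b: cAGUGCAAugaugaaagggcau
bta-miR-193a-5p: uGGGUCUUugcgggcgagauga
bta-miR-9-5p: uCUUUGGUuaucuagcuguaug

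*bta-miR-30b-5p* and *bta-miR-30c* have one seed, as do *bta-miR-19a* and *bta-miR-19b*, *bta-miR-20a*, *bta-miR-106b* and *bta-miR-93*, *bta-miR-92a*, *bta-miR-32* and *bta-miR-25*, *bta-miR-181a* and *bta-miR-181b*, and *bta-miR-130a* and *bta-miR-130b*. The candidates are miRNAs that carry only a number in the count table. The study identifies candidate-miR-3 with *bta-miR-2285au* and candidate-miR-30 with miR-203a-3p of other species, and both are counted here as candidates. Candidate-miR-30 also stands in the epithelial list below. The 2 candidates that rose are 18 nucleotides long, against a median of 22 nucleotides for the miRNAs that did not pass the test, and no known miRNA of the table has either of their seeds. *bta-miR-12034* has a GC content of 89.5%, the highest of the 46 DE-miRNAs, and candidate-miR-38 has 16.7%, the lowest. By group, the median GC content was 46.5% in the 12 higher DE-miRNAs, 40.9% in the 23 lower ones with a count at 30 months, 50% in the 11 at 0, and 47.4% in the other 299 miRNAs.

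The libraries differed by age before any miRNA was tested. Counts assigned to miRNAs ranged from 2026702 to 2778618 per EX library at 20 months, and from 991354 to 1988408 at 30 months. In steer 1 the totals were close, 2052337 and 1988408, and in steers 2 and 3 the total at 30 months was the lower one. A count was present for 328, 333 and 328 of the 345 miRNAs at 20 months and for 249, 234 and 267 at 30 months, in steers 1 to 3, so the number was lower in every steer, steer 1 included. The mean difference was −79.7 miRNAs, with an exact two-sided sign-flip p of 0.25 over 3 steers, the smallest this design allows. Over all 1071 miRNAs of the count table it was −153. The median count of the miRNAs that were present was 154 to 223 at 20 months and 211 to 441 at 30 months. A level of 3 counts, used as the floor of detection, stood at 1.08 to 1.48 CPM at 20 months and 1.51 to 3.03 CPM at 30 months. Intervals and floors of this kind cover counting error only, since reads copied by PCR are not independent molecules. With the level of 3 counts in the shallowest library (3.03 CPM) as a common limit, the numbers at 20 months were 321, 321 and 322, and those at 30 months 240, 223 and 249. The part of these library differences in the results that follow was not tested.

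**Figure D1:**
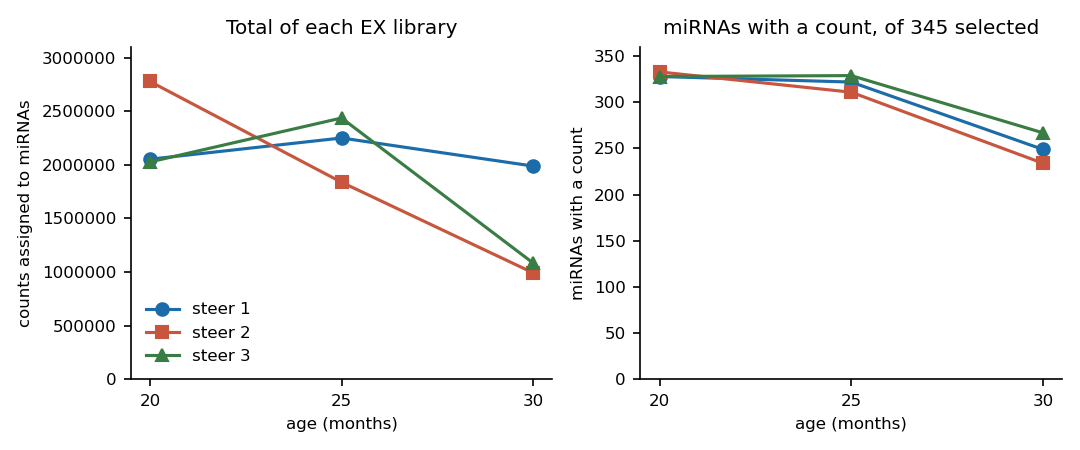
Left, counts assigned to miRNAs in each EX library against age (months). Right, how many of the 345 selected miRNAs had a count. Each line is a steer. The number with a count was 328 to 333 at 20 months and 234 to 267 at 30 months, while the total of steer 1 was nearly the same at both ages.

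Of the 345 miRNAs, 46 were DE-miRNAs between 30 and 20 months (FDR < 0.05 and |log2 fold change| > 1 in edgeR's quasi-likelihood test with steer as a block), 13.3% of those tested. Lower abundance at 30 months was found for 34 (9.86%) and higher abundance for 12 (3.48%). With normalization by library totals alone in place of TMM, the split was 15 lower and 13 higher among 28, and with limma on log2(CPM + 1), which takes CPM as they are, it was 34 lower and 24 higher among 58. The median log2 fold change of all 345 was −0.64 with TMM, −0.53 with the size factors of DESeq2 (RLE) and −0.30 with library totals. Over the 170 miRNAs above 5 CPM in all 9 EX libraries it was −0.073 with TMM, and a fit of these 170 alone called 27 lower and 21 higher (median −0.0080). CPM values, their sums and their overlap are scaled by library totals alone, while fold changes, SE and FDR of the main fits use TMM. The TMM factors of the EX libraries were 0.838 to 1.09 at 20 months and 1.17 to 1.24 at 30 months. Fold changes of the main EX fit therefore lie below those of the CPM values. All 46 moved the same way in each of the 3 steers, and for 44 the values of the ages did not overlap, as for 39.1% of all miRNAs tested. The exceptions were *bta-miR-197* and *bta-miR-335*. The calls rested on all 3 steers. Without steer 1, 2 or 3 the same test called 2, 0 and 12 miRNAs, with 76, 69 and 76 at an unadjusted p under 0.05 against 106 with all steers, while the direction of all 46 was unchanged and 43 kept a |log2 fold change| above 1 whichever steer was left out. Without the 25 months libraries in the fit, 27 were called, 25 of them among the 46. Of the 46, 19 had counts that were not whole numbers, as when reads shared by similar miRNAs are divided among them. The levels of close relatives such as *bta-miR-30b-5p* and *bta-miR-30c* are uncertain to that degree.

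**Figure D2:**
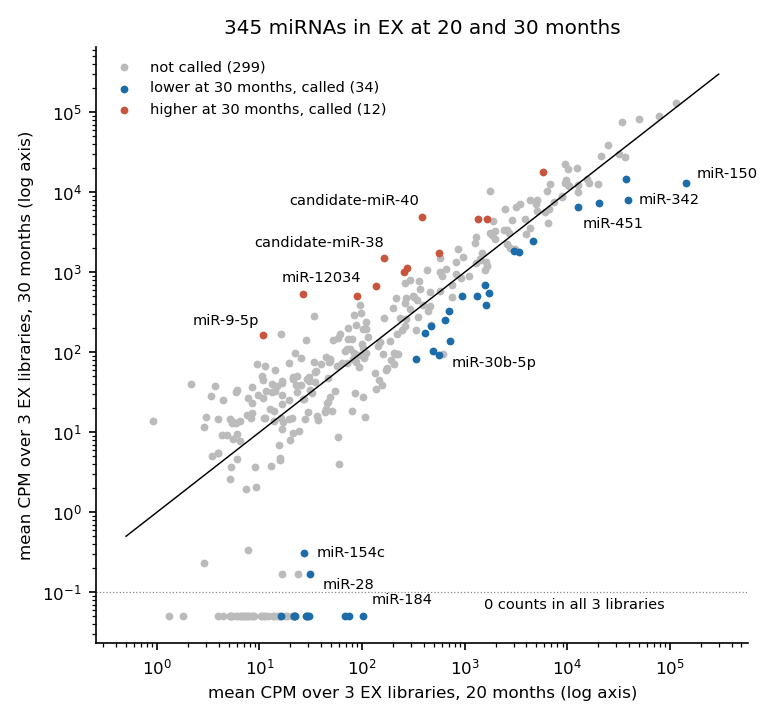
Mean CPM over 3 EX libraries at 30 months (vertical, log axis) against 20 months (horizontal, log axis) for 345 miRNAs, coloured by call, with a line of equality. Points under the dotted line, at 0 counts in every 30 months library, are drawn at an arbitrary height. The 34 lower DE-miRNAs include *bta-miR-150*, *bta-miR-342* and *bta-miR-451*, and the 12 higher ones lie between 10.8 and 5817 CPM at 20 months.

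Several lymphocyte miRNAs fell, among them the most abundant DE-miRNA, and so did both arms of miR-142. Of the 7 lymphocyte miRNAs tested, 3 fell and none rose, against 9.86% and 3.48% of all tested (median log2 fold change −2.71, or −2.37 without *bta-miR-181d*, which was at 0 at 30 months and near the floor at 20 months). Their summed level was 163745 to 206590.0 CPM at 20 months and 29078 to 39115 CPM at 30 months. *bta-miR-150*, abundant in mature B and T cells, stood at 157118, 157185 and 118639 CPM at 20 months and 15283, 7248 and 17119.5 CPM at 30 months in steers 1 to 3 (log2 fold change −3.93, SE 0.59, FDR 0.00693). Its share of all counts went from 11.9–15.7% to 0.725–1.71%, with no overlap. *bta-miR-342*, lodged in the gene of an actin-regulating protein, stood at 33879.9, 45654 and 37278 CPM at 20 months and 7016, 6475 and 10344 CPM at 30 months (log2 fold change −2.71, SE 0.42, FDR 0.00693). *bta-miR-181a*, known for its part in lymphocyte development, stood at 1999.9, 1509 and 1687 and 342, 820.3 and 510.3 CPM (log2 fold change −2.03, SE 0.40, FDR 0.0135). Every value of these 3 miRNAs at 30 months was below every value at 20 months. *bta-miR-155*, induced in activated lymphocytes, did not pass the test (log2 fold change −0.97, SE 0.45, FDR 0.193).

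*bta-miR-181b*, with the seed of *bta-miR-181a*, had the opposite sign and a wide spread at 20 months. Its level was 332, 249.7 and 4720.5 CPM at 20 months and 6859, 13829 and 10326 CPM at 30 months, with steer 3 at 20 months far above the other two, and it did not pass the test (log2 fold change 2.99, SE 1.05, FDR 0.103). It was called under 7 of the alternatives, DESeq2, limma and the fit without steer 3 among them, with log2 fold changes of 3.00 to 4.75 and FDR of 0.000107 to 0.044. Counts of both miRNAs were not all whole numbers. Of the 5 leukocyte miRNAs, 2 fell (9.86% of all tested were lower), and both were arms of the hairpin of miR-142, a miRNA of blood cells in general. The leukocyte list had 1 positive value and a median log2 fold change of −0.73, against −0.64 for all miRNAs. For *bta-miR-142-5p* the levels were 39663, 34495 and 37326 CPM at the younger age and 17763, 10727 and 15804 CPM at the older (log2 fold change −1.70, SE 0.35, FDR 0.0144). For *bta-miR-142-3p* the levels were 1494, 1309 and 1200.0 CPM and then 624, 412 and 489 CPM (log2 fold change −1.74, SE 0.35, FDR 0.014). The arms thus fell by nearly the same amount, and neither overlapped between ages. *bta-miR-223*, a miRNA of neutrophils and other myeloid cells, overlapped between ages, with 50282, 18489 and 40876 CPM at 20 months and 29918, 25337 and 26626 CPM at 30 months (log2 fold change −0.73, SE 0.44, FDR 0.323).

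Red cell miRNAs did not move together. Of 7 tested, 2 fell, *bta-miR-451* and *bta-miR-92a*, against 9.86% of all tested, and neither was called with library totals or limma. The list had a median log2 fold change of −0.50, against −0.64 for all miRNAs and −0.073 for those above 5 CPM in all 9 EX libraries. The summed level was 158631 to 276667 CPM at 20 months and 171573 to 287087 CPM at 30 months. *bta-miR-451*, the leading miRNA of red cells, stood at 12934, 14239 and 34462 CPM at 20 months and 7592, 5882 and 8502 CPM at 30 months (log2 fold change −1.84, SE 0.51, FDR 0.0469). *bta-miR-486*, the other abundant red cell miRNA, stood at 12101, 22878 and 40309 and 46216, 28599 and 40868 CPM and overlapped between ages (log2 fold change 0.20, SE 0.55, FDR 0.838). *bta-miR-144*, made from the same transcript as *bta-miR-451*, did not pass the test (log2 fold change −1.62, SE 0.59, FDR 0.106). The part of red cell RNA in these values was not tested.

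**Figure D3:**
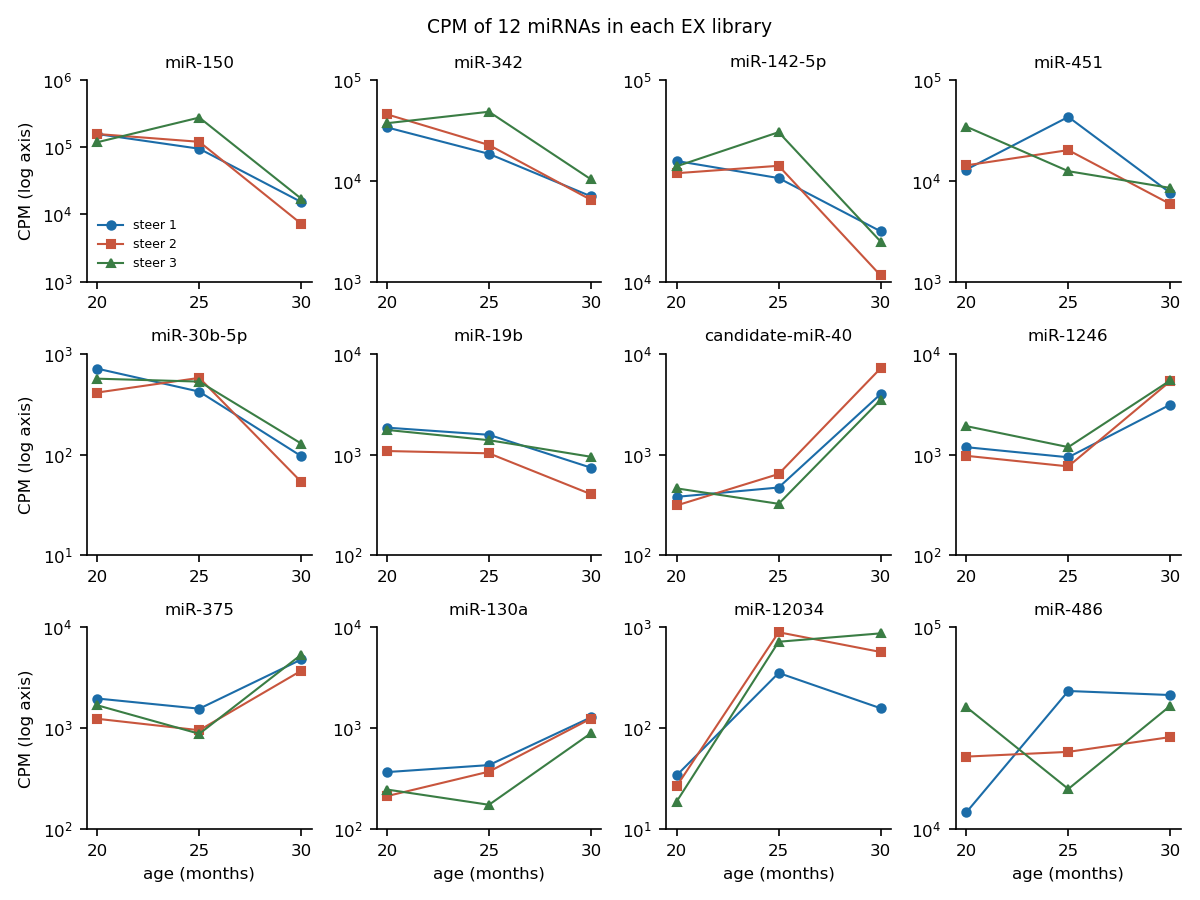
CPM (log axis, different range in each panel) of 12 miRNAs in the 9 EX libraries against age (months), a line per steer. In *bta-miR-150*, *bta-miR-342*, *bta-miR-142-5p* and *bta-miR-30b-5p* all 3 steers are lowest at 30 months, in candidate-miR-40, *bta-miR-1246*, *bta-miR-375* and *bta-miR-130a* all 3 are highest there, *bta-miR-12034* had risen by 25 months, and *bta-miR-486* shows no common course.

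Members of one family did not all pass the test. In the miR-30 family, 2 of 6 tested fell, against 9.86% of all tested. *bta-miR-30b-5p* stood at 711, 412 and 565 CPM at 20 months and 96.3, 53.5 and 128 CPM at 30 months (log2 fold change −2.98, SE 0.39, FDR 0.00656). *bta-miR-30c* stood at 842, 621 and 695 and 173, 78.7 and 159 CPM (log2 fold change −2.79, SE 0.37, FDR 0.00656). *bta-miR-30d* (15339, 9549 and 13667 against 12015, 13284 and 11802 CPM) and *bta-miR-30a-5p* (4168, 7077 and 3666 against 5244, 7581 and 8755 CPM) overlapped between ages and did not pass the test. *bta-miR-30e-5p*, the most abundant member, stood at 21783, 18878 and 18636 CPM at 20 months and 13889.8, 11452 and 12825 CPM at 30 months, lower in every steer with no overlap, and passed FDR at 0.0468 with a log2 fold change of −0.98 (SE 0.27), just short of the fold limit. The summed level of the family was 36612 to 42878 CPM at 20 months and 31418 to 33724 CPM at 30 months.

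The miR-17-92 cluster and its paralogs, separate loci best known from dividing cells, had 5 of 14 tested members lower and none higher, against 9.86% and 3.48% of all tested. Their median log2 fold change was −1.29, against −0.64 for all tested and −0.073 for the 170 above 5 CPM in all 9 EX libraries. The 5 were *bta-miR-19b*, *bta-miR-20a*, *bta-miR-92a*, *bta-miR-19a* and *bta-miR-106b*. *bta-miR-19b* stood at 1849, 1084 and 1754 CPM at 20 months and 741, 404 and 950.2 CPM at 30 months (log2 fold change −1.56, SE 0.23, FDR 0.00693). *bta-miR-20a* stood at 5301, 3538 and 5231 and 2827, 2292 and 2199.9 CPM (log2 fold change −1.27, SE 0.21, FDR 0.00725). *bta-miR-92a* stood at 12169.5, 12596 and 13079 and 6380.1, 6078 and 7151 CPM (log2 fold change −1.31, SE 0.25, FDR 0.0116). None of these overlapped between ages. With library totals or limma, *bta-miR-20a*, *bta-miR-92a* and *bta-miR-19a* were not called, and *bta-miR-19a* was not called with the 6 libraries alone either. *bta-miR-106b* was not called with library totals, without the steer block or with the 6 libraries alone (FDR 0.0603 to 0.126). *bta-miR-19a* and *bta-miR-106b* had log2 fold changes of −1.21 (SE 0.23) and −1.76 (SE 0.44).

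The most abundant members of the same seeds, both of a paralogous cluster that also holds *bta-miR-106b*, did not pass the test. *bta-miR-93*, with the seed of *bta-miR-20a*, stood at 10894, 11209.9 and 14858 CPM at 20 months and 26671, 16152 and 17308 CPM at 30 months (log2 fold change 0.30, SE 0.31, FDR 0.575). *bta-miR-25*, with the seed of *bta-miR-92a*, stood at 18731, 19932 and 25307 and 36424, 21886 and 26524 CPM (log2 fold change 0.0014, SE 0.33, FDR 1). *bta-miR-32*, which also has that seed, fell from 1764, 1568 and 1473 to 686, 274 and 219.8 CPM (log2 fold change −2.45, SE 0.51, FDR 0.0155). The sum over the 4 tested miRNAs with this seed was 32933 to 40042 CPM at 20 months and 28437 to 43683 CPM at 30 months.

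Of the other lower DE-miRNAs with counts at 30 months, *bta-miR-374a*, of an X-linked family of which 1 of 2 tested members fell, stood at 567, 441 and 462 CPM at 20 months and 81.2, 151 and 75.7 CPM at 30 months (log2 fold change −2.63, SE 0.41, FDR 0.00693). *bta-miR-2285bf*, of a family found in ruminants, stood at 367, 278 and 359 and 47.1, 91.3 and 112 CPM (log2 fold change −2.44, SE 0.39, FDR 0.00693), and was not called with the 6 libraries alone (FDR 0.0678). *bta-miR-186* had the smallest change of the lower DE-miRNAs, from 3408, 2743 and 2990.1 to 1547, 1939 and 2068 CPM (log2 fold change −1.08, SE 0.19, FDR 0.0108), and was not called with RLE, library totals, DESeq2 or limma (−0.98 to −0.72). *bta-miR-99a-5p* had a log2 fold change of −1.49 (SE 0.33), and in its group (miR-10, miR-99, miR-100 and miR-125) 2 of 8 tested fell (9.86% of all tested), 4 had a positive value and the median was −0.15. The call of *bta-miR-99a-5p* was lost with library totals, limma with a pseudocount of 1 and the 6 libraries alone. *bta-miR-197* and *bta-miR-335*, the 2 whose ages overlapped, had log2 fold changes of −1.65 and −1.79. Over the 21 lower DE-miRNAs with at least 3 counts in every 30 months library, the log2 fold change ran from −1.08 to −3.93. These miRNAs had mean levels of 335 to 144314 CPM at 20 months.

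The arms of one hairpin did not always move together. *bta-miR-423-3p* fell, from 4726, 2340.0 and 3004 CPM at 20 months to 1491, 1922 and 1966 CPM at 30 months (log2 fold change −1.21, SE 0.25, FDR 0.0144), and was not called with library totals or limma (−0.87 to −0.85). The opposite arm *bta-miR-423-5p*, the more abundant one, had 11984, 9055 and 9520.1 and 22293, 21974 and 14584 CPM, with no overlap and a positive value that did not pass the test (log2 fold change 0.59, SE 0.25, FDR 0.145). The difference between the arms was not tested.

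Another 11 lower DE-miRNAs were counted in every library of both 20 and 25 months but had 0 counts in all 3 at 30 months. They were the less abundant ones, with mean levels of 16.4 to 102 CPM at 20 months. Against the floor of 3 counts per library at 30 months, which averaged 2.44 CPM, they were at least 6.72-fold to 42.1-fold lower. *bta-miR-184*, best known from the lens and cornea, led these with 115, 119.8 and 72.5 CPM at 20 months and was at least 42.1-fold lower. *bta-miR-1249* (74.5, 42.8 and 109 CPM at 20 months) was at least 30.9-fold lower. *bta-miR-132*, known from neurons, (68.7, 47.9 and 88.3 CPM) was at least 28.0-fold lower. The others were *bta-miR-6120-3p*, *bta-miR-491*, candidate-miR-6, *bta-miR-193b*, *bta-miR-1277*, *bta-miR-2285f*, *bta-miR-2285am-5p* and *bta-miR-99a-3p*. *bta-miR-28* and *bta-miR-154c* were called with 1 count or less over the 30 months libraries, from 42.6, 35.3 and 15.3 and 33.6, 19.8 and 28.1 CPM at 20 months. Among all 345 miRNAs, 46 were at 0 in every 30 months library and none was at 0 in every 20 months library. The filter bears on this, since 6 of its 9 libraries are of the younger ages and a miRNA counted at 30 months alone had to exceed 5 CPM in all 3. A fit of the 6 libraries alone called none of the 11, library totals ended the calls of 7 of them, no filter those of 4, and the call of *bta-miR-154c* was lost under all 3 of these settings. RLE, limma with a pseudocount of 5 and the fit without *bta-miR-150* each ended 1 to 3 of the 11. The fitted values of miRNAs at 0 depend on the model, and none is given here as a fold.

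The 12 higher DE-miRNAs came from several groups. Their values did not overlap between ages, and their log2 fold changes ran from 1.16 to 3.66. Candidate-miR-40 had the smallest FDR of the comparison. It stood at 381, 313 and 462 CPM at 20 months and 3978, 7173 and 3490.0 CPM at 30 months (log2 fold change 3.24, SE 0.31, FDR 0.00158), a 9.47-fold difference. Candidate-miR-38 stood at 166, 100 and 224 and 1401, 1980.1 and 1160.0 CPM (log2 fold change 2.82, SE 0.44, FDR 0.00693). Of the 20 candidates tested, 2 were higher and 1, candidate-miR-6, was lower, against 3.48% and 9.86% of all tested, and the median was −1.58 (−1.30 with those at 0 set to their bound). *bta-miR-12034* stood at 34.1, 26.6 and 18.7 CPM at 20 months and 158, 571 and 874 CPM at 30 months (log2 fold change 3.66, SE 0.60, FDR 0.00725). In its numbered series (miR-11970 to miR-12070) it was the only 1 of 13 tested that passed. *bta-miR-1246*, whose human namesake overlaps a fragment of a small nuclear RNA, stood at 1183, 971 and 1914 and 3129, 5341 and 5439 CPM (log2 fold change 1.46, SE 0.26, FDR 0.0104).

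*bta-miR-375*, a miRNA of pancreatic islets and of endocrine and epithelial cells of the gut, stood at 1973, 1241 and 1689.9 CPM at 20 months and 4812, 3726 and 5376 CPM at 30 months (log2 fold change 1.16, SE 0.21, FDR 0.0108). The second endocrine miRNA, *bta-miR-7*, did not pass the test (log2 fold change 0.99, SE 0.76, FDR 0.428). In the family of miR-130 and miR-301, 2 of 5 tested rose and none fell, against 3.48% and 9.86% of all tested. *bta-miR-130a* stood at 367, 212 and 247 and 1283, 1248 and 894 CPM (log2 fold change 1.71, SE 0.29, FDR 0.0079). *bta-miR-130b* stood at 425, 136 and 202 and 1523, 839 and 659 CPM (log2 fold change 1.71, SE 0.36, FDR 0.0164), and was not called without the steer block (FDR 0.0844). *bta-miR-301a*, with the same seed, had a log2 fold change of −0.77 (FDR 0.269). Over the 5 with this seed, the sum was 616 to 1366 CPM at 20 months and 1879 to 3323 CPM at 30 months.

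*bta-miR-126-3p*, the leading miRNA of vessel endothelium, also present in platelets, stood at 8996, 4494 and 3961 CPM at 20 months and 18365, 13608 and 22028 CPM at 30 months (log2 fold change 1.36, SE 0.28, FDR 0.0149). It was the only 1 of 11 platelet and vessel wall miRNAs to pass (3.48% of all tested were higher). The other arm, *bta-miR-126-5p*, was higher in all 3 steers without passing (log2 fold change 0.78, SE 0.38, FDR 0.21). *bta-miR-222* of the same list stood at 945, 648 and 665 and 384, 846 and 258 CPM, with overlap (log2 fold change −1.10, SE 0.33, FDR 0.0708). The summed level of the list was 21992 to 33774 CPM at 20 months and 43312 to 53170.3 CPM at 30 months.

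*bta-let-7e* was the only 1 of 10 tested let-7 members to pass (3.48% of all tested were higher), and it was not called with the 6 libraries alone. This family restrains growth genes in most tissues. It stood at 120.2, 87.6 and 58.9 CPM at 20 months and 489, 403 and 609 CPM at 30 months (log2 fold change 2.20, SE 0.45, FDR 0.0144), and the far more abundant *bta-let-7b* was higher in every steer without passing (log2 fold change 0.84, SE 0.27, FDR 0.084). Of the 10, 6 had a negative value, and the median was −0.15. *bta-miR-760-3p* rose from 154, 122 and 130.3 to 655, 798 and 564 CPM (log2 fold change 1.95, SE 0.37, FDR 0.0116). *bta-miR-193a-5p* and *bta-miR-9-5p*, the latter a miRNA of the nervous system, had log2 fold changes of 1.31 (SE 0.35) and 3.58 (SE 0.97).

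**Figure D4:**
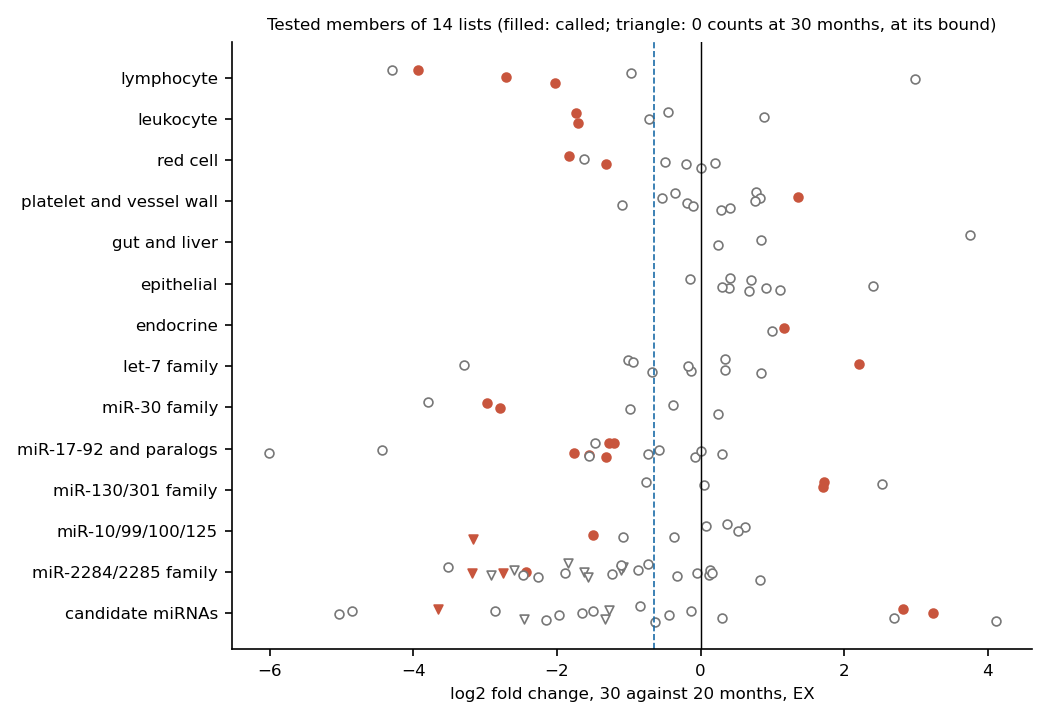
Log2 fold change in EX, 30 against 20 months, of the tested members of 14 lists (rows). Filled symbols passed the test. Triangles had 0 counts at 30 months and are placed at their bound, and *bta-miR-181d*, which has no bound, is not drawn. The dashed line marks the median of all 345 miRNAs, −0.64. Calls are lower in the lymphocyte, leukocyte, red cell, miR-30 and miR-17-92 lists, and higher in the endocrine and miR-130 lists.

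Liver, gut and epithelial miRNAs gave no call in edgeR's quasi-likelihood test, although several were higher at 30 months in all steers. *bta-miR-192*, a miRNA of gut, liver and kidney, stood at 40163, 36241 and 26234 CPM at 20 months and 63472, 84194 and 80843 CPM at 30 months, with no overlap, and missed the test (log2 fold change 0.84, SE 0.30, FDR 0.104). *bta-miR-215*, which has the same origin, had a log2 fold change of 0.24 (FDR 0.58). *bta-miR-122*, the main miRNA of hepatocytes, ranged widely between steers, with 22939, 95221 and 31004 and 35472, 108600.0 and 100406 CPM (log2 fold change 0.56, SE 0.45, FDR 0.444). *bta-miR-885* of the same list was at 0 in 2 of the 3 libraries at 30 months. In the epithelial list, 8 of 9 tested members had a positive value (median 0.68), and none passed. *bta-miR-141* stood at 3966, 3351 and 3187 and 5889, 8779.9 and 6846 CPM (log2 fold change 0.68, SE 0.23, FDR 0.0982), and *bta-miR-200a* had a log2 fold change of 0.70. With limma, *bta-miR-192* was called at a log2 fold change of 1.17 (FDR 0.0379 with a pseudocount of 1 and 0.0378 with 5), and *bta-miR-141* at 1.02 (FDR 0.0497 and 0.0413). The summed level of the epithelial list was 7243 to 8750.0 CPM at 20 months and 13967 to 18210.5 CPM at 30 months. Muscle miRNAs were scarce, at 67.9 to 730.4 CPM in sum at 20 months and 48.4 to 561 CPM at 30 months, and neither *bta-miR-1* (log2 fold change 2.06, SE 0.99) nor *bta-miR-206* (0.62, SE 1.60) passed.

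Among the remaining families, 3 of 24 tested members of the miR-2284 and miR-2285 family and 1 of 18 of the imprinted DLK1-DIO3 cluster fell, and none rose, against 9.86% lower among all tested. No member passed in the miR-15/16, miR-29, miR-26, miR-23/24/27, miR-103 with miR-107, miR-378, miR-33, miR-148 with miR-152 and miR-320 lists. The leading members of these had log2 fold changes of −0.20 for *bta-miR-16b*, −0.50 for *bta-miR-16a*, −0.45 for *bta-miR-29a* and 0.61 for *bta-miR-29c*. The miR-26 and miR-23/24/27 lists gave −0.65 for *bta-miR-26b*, −0.80 for *bta-miR-26a*, −0.66 for *bta-miR-23a* and −0.021 for *bta-miR-27b*. Among miRNAs linked to lipid metabolism, the values were −0.0026 for *bta-miR-103*, −0.63 for *bta-miR-107*, 0.21 for *bta-miR-378*, 0.60 for *bta-miR-378c*, −0.29 for *bta-miR-33a*, 0.55 for *bta-miR-148a* and 0.088 for *bta-miR-148b*. *bta-miR-33b* was at 0 in all 30 months libraries, from 14.1, 7.56 and 9.62 CPM at 20 months. *bta-miR-320a* passed the FDR limit but not the fold limit (log2 fold change 0.96, SE 0.23, FDR 0.0295), and *bta-miR-484* did not pass FDR (log2 fold change −1.24). With RLE, library totals, the filter on all 9 libraries, DESeq2, limma or *bta-miR-150* left out, *bta-miR-320a* passed both (log2 fold change 1.01 to 1.30). *bta-miR-21-5p*, the second most abundant miRNA, had −0.18.

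The 10 most abundant miRNAs of the 6 libraries were, in order, *bta-miR-16b*, *bta-miR-21-5p*, *bta-miR-150*, *bta-miR-122*, *bta-miR-192*, *bta-miR-223*, *bta-miR-486*, *bta-miR-29a*, *bta-miR-142-5p* and *bta-miR-25*. Together they held 54.7%, 61.1% and 55.7% of the counts at 20 months, against 51.7%, 53.5% and 54.0% at the later age. The share was lower at 30 months in every steer, by 4.11 percentage points on average (exact two-sided sign-flip p = 0.25, the smallest possible). The mean change was −2.37 points without steer 2, and −7.91 points with the 10 most abundant at 20 months. Of the 10, *bta-miR-150* and *bta-miR-142-5p* were the DE-miRNAs. At 30 months the first place was held by *bta-miR-16b* in steers 1 and 3 (17.2% and 12.5% of counts) and by *bta-miR-21-5p* in steer 2 (12.4%), and at 20 months by *bta-miR-150* in steers 1 and 2 (15.7% in each) and by *bta-miR-16b* in steer 3 (14.4%).

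The libraries at 25 months were read beside those of the other ages. These contrasts share libraries with the one above, so their values are given side by side and not as separate evidence. Between 25 and 20 months 1 miRNA was called (0.290% of those tested), *bta-miR-12034*, with 354, 896 and 721 CPM at 25 months, and 8 had an unadjusted p under 0.05. Between 30 and 25 months 49 were called (14.2%), 36 lower and 13 higher, and without steers 1, 2 and 3 the count was 18, 0 and 1. Of the 35 DE-miRNAs of 30 against 20 months with a count at 30 months, 32 had a mean at 25 months nearer to that at 20 than at 30 months on the log2 scale, among them all 23 lower ones. Of all 296 tested with a count at each age, 217 (73.3%) did so, and the 35 were chosen for a difference between 20 and 30 months. *bta-miR-150* had log2 fold changes of 0.13 from 20 to 25 months and −4.06 from 25 to 30 months. *bta-miR-30b-5p* had 0.0031 and −2.98, and candidate-miR-40 had 0.36 and 2.89. A |log2 fold change| above 1 by 25 months was found in 4 of the 35, all higher ones: *bta-miR-12034*, *bta-let-7e*, *bta-miR-9-5p* and *bta-miR-126-3p*. *bta-miR-126-3p* stood at 15335, 10924 and 8378 CPM at 25 months, between the other ages.

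The FC fraction of the same plasma samples was read beside EX. Its libraries held 7222665 to 12088735 counts at 20 months and 3615234 to 4871908 at 30 months, and in the 3 at 30 months the counts of 77 to 90 miRNAs were recomputed from the CPM values because the rows of the deposited tables were out of step. In FC, 25 of 358 miRNAs were called between 30 and 20 months (6.98%), 15 lower and 10 higher. This count was 1, 5 and 10 without steers 1, 2 and 3, and 2 with the deposited rows of the counts. Of the 35 EX DE-miRNAs with a count at 30 months, 34 had the same sign in FC and 8 were called there too. Of all 287 miRNAs with a count in EX at 30 months that were tested in FC, 208 (72.5%) had the same sign. The exception among the 35 was *bta-miR-1246*. *bta-miR-150* stood at 78022, 78932 and 65258 CPM in FC at 20 months and 18749.9, 7188 and 9629 CPM at 30 months (log2 fold change −2.72, FDR 0.03). The difference between its changes in EX and FC was −1.37 (SE 0.80) and missed the test (FDR 0.346).

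The difference between the changes of the 2 fractions was itself tested on the 330 miRNAs selected in both. At FDR < 0.05 it was called for 25 (7.58%), with 22 lower and 3 higher in EX relative to FC, and without steers 1, 2 and 3 for 0, 12 and 27 (the median difference of all 330 was −0.51). With the plasma sample, which gave both fractions, as the block in place of steer, 61 were called, 53 lower and 8 higher, 22 of the 25 among them. Of the 22, 17 were at 0 in all EX libraries at 30 months, and 14 of those 17 had a count in every FC library at that age. These 17 passed the EX filter only through the libraries of 20 and 25 months, so the filter bears on the split of 22 to 3. *bta-miR-1249* was one, with 46.3, 56.8 and 90.0 CPM in FC at 20 months and 41.7, 56.4 and 30.8 CPM at 30 months. So was *bta-miR-2285f*, with 30.6, 27.4 and 26.5 and 19.6, 10.7 and 17.2 CPM in FC. The FC libraries at 30 months held 2.45 to 3.65 times the counts of the EX libraries of the same steers, and the part of depth in this was not tested. *bta-miR-19a* and *bta-miR-197*, lower in EX, had counts in every library, with differences of −1.19 (SE 0.28, FDR 0.0319) and −1.37 (SE 0.39, FDR 0.0437) on the log2 scale.

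The 3 that were higher in EX relative to FC were *bta-miR-181b*, *bta-miR-1246* and *bta-miR-320a*. *bta-miR-181b* fell in FC, from 303, 235 and 262 to 114, 87.8 and 97.5 CPM (log2 fold change −1.41, FDR 0.027), against higher values at 30 months in all 3 EX pairs, which did not pass the test, and the difference was 3.90 (SE 1.05, FDR 0.0365). *bta-miR-1246* stood at 3006, 4577 and 3430.3 and 2064, 3721 and 3948 CPM in FC, with overlap, and differed by 1.55 (SE 0.41, FDR 0.0365). Candidate-miR-40 rose in both fractions, and more in FC, where it went from 17.5, 36.7 and 23.6 to 431, 761 and 481 CPM (log2 fold change 4.46, FDR 5.13e-05). The difference was −1.32 (SE 0.36, FDR 0.0373), and its level in EX was above that in FC at both ages.

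**Figure D5:**
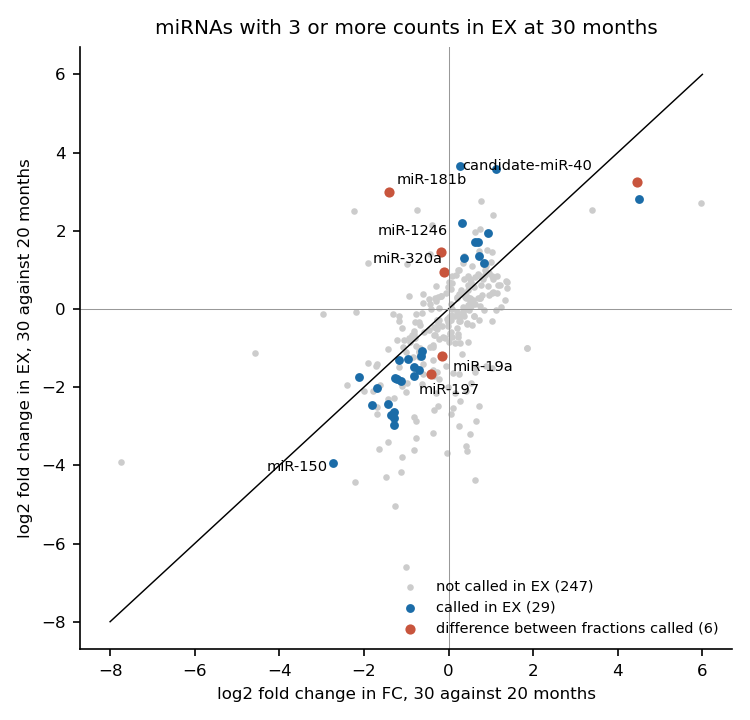
Log2 fold change in EX (vertical) against that in FC (horizontal), 30 against 20 months, for the 282 miRNAs tested in both fractions with 3 or more counts over the EX libraries at 30 months, with a line of equality. *bta-miR-150* and both candidates that rose in EX have the same sign in both fractions, and *bta-miR-181b* and *bta-miR-1246* lie above the line with opposite signs.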

How the data were processed

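Small RNA of EX and FC fractions of plasma from 3 Japanese Black steers at 20, 25 and 30 months was sequenced, 18 libraries in all. The authors trimmed reads and assigned them to mature miRNAs with miRDeep2 after mapping to a resequenced cattle genome. The submitters' processing notes name cutadapt 5.0, Trimmomatic 0.39, FastQC 0.12.1 and edgeR 4.0.16. The authors deposited expected counts per miRNA, not whole where reads are shared, and CPM values, which also carry a row of totals and were read as a signal. The deposited count table also gives each mature sequence and its length. Authors' comparisons were not used. No coordinates are given, since the reference gene table is of another genome build.

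Rounded counts of miRNAs with CPM above 5 in 3 or more of 9 libraries were TMM-normalized and fitted by edgeR 4.0.16 in R 4.3.3 (quasi-likelihood, age and steer in the model, 9 libraries of a fraction), with Benjamini-Hochberg FDR. Standard errors are the log2 fold change divided by the root of its F statistic. The fit was tried on simulated data in which as many miRNAs were raised as lowered. Most DE-miRNAs of the main fit were lower, so that trial does not bear on the dependence on normalization. Between fractions, all 18 libraries and an age by fraction term were used. limma 3.58.1 and DESeq2 1.42.0 gave alternatives. Tables were made in Python 3.11.15 (numpy 2.4.6, pandas 2.3.3) and figures in matplotlib 3.10.9. No 2 libraries of a group were copies of each other. In 4 FC libraries, counts that did not match the CPM values were recomputed from them.

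Libraries with one number come from the same steer: the study's list of the sampled animals gives each plasma sample its animal's number, and its test was paired. The deviations of same-numbered EX libraries at 20 and 30 months correlated at 0.055, 0.089 and 0.013 over miRNAs, and those of different steers at −0.083 to 0.025. Deviations were taken from the mean of the 3 libraries of an age, which pushes values between different steers down. The largest of these, 0.025, was above the 0.013 of steer 3, so the correlations cannot show the pairing.

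The members and lists were chosen with earlier results of these data known. The miRNAs named are the 10 most abundant, the 10 DE-miRNAs of lowest FDR in each direction that changed the same way in all steers, DE-miRNAs at 0 in all libraries of an age, called members of 28 lists (or the 2 most abundant where none was called), the 5 with the smallest FDR each way between fractions, and *bta-miR-150*, *-30b-5p*, *-423-3p*, *-222* and *-93*. Further miRNAs of a family, seed or hairpin were named after their values were seen. P-values speak for these 3 steers only. In the main EX fit the spread was estimated from all 9 libraries, those of 25 months included, and in part from other miRNAs.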

Additional observations from a re-analysis of the deposited data

Results flagged for a closer look

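For 25 of 330 miRNAs, EX and FC changed by different amounts from 20 to 30 months, by the test of the difference itself (edgeR, FDR < 0.05), and for 61 with the plasma sample as a block. Relative to FC, *bta-miR-1246* (FDR 0.0365), *bta-miR-181b* (FDR 0.0365) and *bta-miR-320a* (FDR 0.0365) were higher in EX at 30 months. *bta-miR-1249* (FDR 0.00057), *bta-miR-2285f* (FDR 0.00935), *bta-miR-2285am-5p* (FDR 0.0165), *bta-miR-2285q* (FDR 0.0165) and *bta-miR-99a-3p* (FDR 0.0165) were lower in EX, each with 0 counts in all 3 EX libraries at 30 months and a count in every FC library. They passed the EX filter only through the libraries of the younger ages. *bta-miR-320a* stood at 3027, 2068 and 2364 CPM in EX at 20 months and 6178, 7369.9 and 4869 CPM at 30 months, against 2516, 1604 and 1693 and 1751, 1634 and 1819 CPM in FC, where the ages overlapped.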

How the results depend on the processing

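The 46 DE-miRNAs became 28 with library totals alone, 27 with the 6 libraries only, 83 with edgeR's likelihood ratio test and 78 with DESeq2 (23 higher), and 0 to 12 when a steer was left out. RLE, other filters, limma and, chosen after seeing the data, leaving out *bta-miR-150* gave 40 to 58. The 40 DE-miRNAs named by rule kept their direction under all alternatives in which they were tested. With every steer present, the likelihood ratio test and the filter on the 6 libraries kept all 40 calls, library totals lost 16 and the fit on 6 libraries lost 17. Of 34 named miRNAs that were not called, 9 were called under 1 or more alternatives: *bta-miR-181b* and *bta-miR-320a* under 7 each, *bta-miR-2285q* under 5, *bta-miR-222* under 3, *bta-miR-1*, *bta-miR-141*, *bta-miR-192* and *bta-miR-33b* under 2 each and *bta-miR-484* under 1.

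The fit without the replicate block, that is without pairing by steer, called 54, of which 43 were among the 46. It called 29 between fractions, 1 for 25 against 20 months, 66 for 30 against 25 months and 27 in FC.

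The number called between fractions, 25, became 61 with the plasma sample as a block (53 lower), 47 with the likelihood ratio test, 40 with the deposited rows of the counts (17 higher), 21 with RLE, and 0 to 27 without a steer. For the side-by-side contrasts, alternatives added after seeing the data gave, with the likelihood ratio test, 90 for 30 against 25 months and 53 in FC. Without a steer they gave 0 to 1 for 25 against 20 months (0 without steer 2), 0 to 18 for 30 against 25 months and 1 to 10 in FC. The deposited rows gave 2 in FC.

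The mean change in the number of miRNAs with a count, −79.7, was −153 over the whole table and −89 to −70 without a steer. That in the share of the top 10, −4.11 points, was −7.91 with the 10 most abundant at 20 months and −5.31 to −2.37 without a steer. Of the 34 named miRNAs that were not called, 10 changed sign under 1 or more alternatives. *bta-miR-103* had 0.11 with RLE, 0.35 with library totals, 0.033 with no filter, 0.077 with the filter on all 9 libraries, 0.11 with DESeq2, 0.37 with limma with a pseudocount of 1, 0.37 with limma with a pseudocount of 5, 0.032 with no replicate block, 0.015 with 6 libraries, 0.061 with *bta-miR-150* left out. *bta-miR-16b* had 0.16 with library totals, 0.19 with limma with a pseudocount of 1, 0.19 with limma with a pseudocount of 5. *bta-miR-206* had −0.11 with limma with a pseudocount of 1, −0.061 with 6 libraries. *bta-miR-21-5p* had 0.17 with library totals, 0.17 with limma with a pseudocount of 1, 0.17 with limma with a pseudocount of 5. *bta-miR-25* had −0.019 with the filter on the 6 libraries. *bta-miR-27b* had 0.082 with RLE, 0.32 with library totals, 0.0079 with no filter, 0.050 with the filter on all 9 libraries, 0.082 with DESeq2, 0.32 with limma with a pseudocount of 1, 0.32 with limma with a pseudocount of 5, 0.040 with *bta-miR-150* left out. *bta-miR-33a* had 0.035 with library totals. Without a steer, the values ran from −0.16 to 0.14 for *bta-miR-103*, −0.055 to 0.27 for *bta-miR-148b*, −0.61 to 0.12 for *bta-miR-16b*, −0.92 to 1.45 for *bta-miR-206*, −0.31 to 0.25 for *bta-miR-25*, −0.088 to 0.050 for *bta-miR-27b*, −1.12 to 0.37 for *bta-miR-33a*, −0.23 to 0.62 for *bta-miR-486* and −0.030 to 0.54 for *bta-miR-93*. The cause of these shifts was not tested. A fold cannot be given below the floor of 1.51 to 3.03 CPM at 30 months.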
